A study of Mus musculus with 6 samples.

Results

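Expression of 10 genes of the endothelial response to blood flow was compared between control and *Atp6ap2* iECKO isolated lung endothelial cells (iLECs). Of these, 0 of 10 passed the test, where 8.25% of all 14456 genes tested did. The 10 genes are the flow-response transcription factors *Klf2* and *Klf4*, their classical endothelial targets *Nos3* and *Thbd*, the caveolins *Cav1* and *Cav2*, and the cerebral cavernous malformation (CCM) genes *Heg1*, *Ccm2*, *Krit1* and *Pdcd10*. The genes were chosen by name, as the rows for these 10 symbols among the 24972 in the deposited RNA-Seq table. Lungs came from mice at P7, whose strain is labelled C57BL/6 while the study's methods give a mixed CD1 and C57BL/6 background for its lines, after tamoxifen (100 µg) at P1 to P3 in both genotypes, and cells were pulled from the digested tissue with beads coated with a CD31 antibody. All 6 libraries are labelled as carrying a floxed *Atp6ap2* allele over a Y chromosome (*Atp6ap2* fl/Y). The 3 *Atp6ap2* iECKO libraries also carry Cdh5-CreERT2+, a tamoxifen-inducible Cre driven by the *Cdh5* promoter of endothelial cells, and the 3 control libraries do not. Because no library carries Cre without the floxed allele, an effect of Cre and an effect of the deletion cannot be told apart here. The comparison asks whether loss of the (pro)renin receptor ATP6AP2 changed the mRNA of genes that endothelial cells use to sense and answer flow.

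Laminar flow raises KLF2 and KLF4 through a kinase relay in which MEKK3 and MEK5 activate ERK5, and ERK5 in turn activates MEF2 transcription factors at the *Klf2* and *Klf4* promoters. KLF2 and KLF4 then raise genes that keep vessels open and blood fluid, among them endothelial nitric oxide synthase (*Nos3*) and thrombomodulin (*Thbd*), which redirects thrombin to activate protein C. The CCM complex holds this relay in check: the membrane protein HEG1 recruits KRIT1, which binds CCM2 and through it PDCD10, and CCM2 binds MEKK3. Endothelial loss of KRIT1, CCM2 or PDCD10 is known to raise *Klf2* and *Klf4* and to give leaky, dilated venous capillaries. Caveolae are flask-shaped pits of the plasma membrane, abundant in lung capillary endothelium. Caveolin-1 builds their coat, caveolin-2 joins it, and caveolin-1 holds endothelial nitric oxide synthase inactive.

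The promoters of *Klf2*, *Krit1* and *Ccm2* carry short motifs that bear on this circuit and are printed to show them in place, with the motif in capitals. The sequences are from RefSeq on GRCm38.p6, run 5′ to 3′ on the plus strand and stop before the RefSeq start used for each gene. The table held promoters for 8 of the 10 genes. The *Klf2* window, chr8:72318844-72319013, holds the MEF2 site through which the ERK5 relay is known to act, 108 bases before the RefSeq start.
Klf2: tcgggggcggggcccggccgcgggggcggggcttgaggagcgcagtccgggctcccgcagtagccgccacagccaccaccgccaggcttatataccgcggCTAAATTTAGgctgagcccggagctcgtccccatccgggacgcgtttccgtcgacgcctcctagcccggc
The *Krit1* window, chr5:3803062-3803180, and the *Ccm2* window, chr11:6546751-6546886, both hold CCGGAAGT, a motif of the ETS family of transcription factors. It lies 11 and 28 bases before the RefSeq start used. Another RefSeq start of *Krit1* falls inside the motif, so the printed *Krit1* window runs past that start.
Krit1: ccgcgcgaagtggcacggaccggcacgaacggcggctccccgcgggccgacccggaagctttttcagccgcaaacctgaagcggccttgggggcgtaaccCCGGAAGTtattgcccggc
Ccm2: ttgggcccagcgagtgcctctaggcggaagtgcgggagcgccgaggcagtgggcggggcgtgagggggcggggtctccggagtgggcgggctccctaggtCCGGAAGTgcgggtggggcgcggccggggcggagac
On either strand, the MEF2 motif was present in 3.19% of 32851 mouse promoters of 250 bases before to 50 bases after the start, and CCGGAAGT in 3.89%. Among the 8 genes, the first was found for *Klf2* alone and the second for *Krit1* and *Ccm2*. The letters CACCC, the core that KLF factors bind, were in 57.5% of promoters and in those of *Cav1*, *Ccm2*, *Heg1* and *Klf2*. These matches describe the sequence and were not tested for binding.

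The libraries had normalized totals of 26243878 to 28725799. *Atp6ap2* was at 7490, 5815 and 5681 normalized counts in controls 1, 2 and 3 and at 4220, 2336 and 1982 in iECKO 1, 2 and 3, a log2 fold change of -1.22 ± 0.26 (SE; limma, adjusted *P* = 0.0306). That adjusted *P* rose to between 0.0628 and 0.104 when any library other than iECKO 1 was left out. Although all labels give a Y chromosome, *Xist*, which is made from the inactive X, was at 37704 to 47487 in 4 libraries and at 19.3 to 31.7 in control 3 and iECKO 2. The study states that neonates of both sexes were used, with females carrying *Atp6ap2* fl/fl. Its text does not give the sex of each RNA-Seq library. The defining endothelial markers *Pecam1* and *Cdh5* were at 48730 or more in every library and did not pass the test (adjusted *P* = 0.599 and 0.853, limma), while 1 of 18 endothelial markers, *Tek*, fell. The fibroblast and mural (smooth muscle and pericyte) marker lists were lower in iECKO, with 13 of 17 and 9 of 16 tested genes falling and none rising. Summed fibroblast markers ran from 194543 to 243928 in controls and from 103919 to 143644 in iECKO, and summed mural markers from 14550 to 22004 and from 6011 to 7653. Fewer cells of a type and less RNA per cell cannot be told apart in such bulk samples. The study describes the libraries of a genotype as biological replicates, and each genotype held libraries with high and with low *Xist*. The labels do not say how many animals went into each library.

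None of the 10 genes differed between genotypes at an adjusted *P* below 0.05 (limma over 14456 genes), where 8.25% of all genes tested did. Before adjustment 1 of 10, *Thbd*, had a *P* below 0.05, against 23.9% of all genes. The libraries of both genotypes overlapped in each of the 10 genes, while 29.8% of all genes had no overlap. The log2 fold changes were below 0 in 6 genes and above 0 in 4, with a median of -0.08 against 0.0049 for all genes. Their median size without regard to sign was 0.12, against 0.21 for all genes. The 95% intervals of the members reached 0.18 to 0.72 log2 units to either side. Changes smaller than that could not be told from 0 for a given gene, and a call after adjustment needed a larger change. The interval of *Thbd* left out 0, and the gene was still not called. An exact two-sided permutation test of 3 against 3 libraries cannot go below *P* = 0.1, and the 10 genes gave exact values of 0.2 to 0.9.

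**Figure D1:**
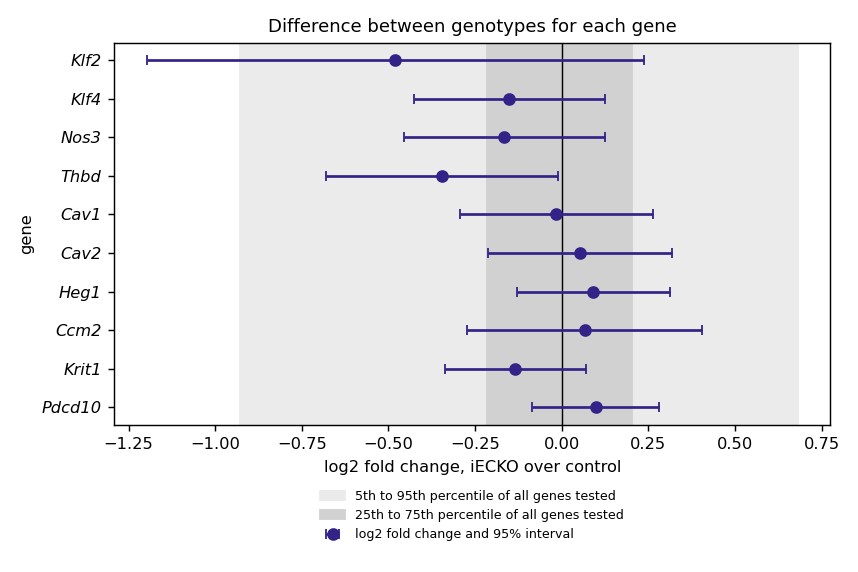
Log2 fold change of iECKO over control for the 10 genes, with points at the limma estimate and bars for the 95% interval. All intervals cross 0 except that of *Thbd*, which ends at -0.01, and the widest is that of *Klf2*, from -1.20 to 0.24.

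*Klf2*, the zinc-finger factor that laminar flow raises most directly, lies at chr8:72319033-72321656 of GRCm38 on the plus strand. Its normalized counts were 2784, 7232 and 5408 in controls and 2877, 3516 and 3965 in iECKO. Control 1 was the lowest of all 6 libraries, and the other controls were the highest, so the iECKO values sat between them. The log2 fold change was -0.48 ± 0.31 (SE; 95% interval -1.20 to 0.24; limma, adjusted *P* = 0.402). Controls varied with a coefficient of variation of 43.5% and iECKO libraries with 15.8%. The value depended on single libraries in both directions. Without control 1 the log2 fold change was -0.87 with an adjusted *P* of 0.0356 (limma), and no other omission gave a call. Over all single omissions it ran from -0.87 to -0.18, with adjusted *P* values up to 0.761 (limma). Between libraries of like *Xist* level, the log2 ratio was -0.41 among the 4 high libraries and -0.62 between the low pair, with too few libraries for a test.

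*Klf4*, whose endothelial targets are largely shared with *Klf2*, lies at chr4:55527143-55532466 on the minus strand. *Klf4* stood at 22200, 28230 and 21876 in controls and at 21475, 20890 and 22299 in iECKO. Control 2, also the highest for *Klf2*, stood above the rest, and the other 5 libraries lay close together. The log2 fold change was -0.15 ± 0.12 (SE; 95% interval -0.43 to 0.12; limma, adjusted *P* = 0.495), so a fall below 0.744 of the control level lay outside the interval. The ratio of *Klf2* to *Klf4* was 0.21 ± 0.073 in controls and 0.16 ± 0.023 in iECKO (SD, n = 3; exact permutation *P* = 0.4).

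*Nos3*, whose enzyme makes the nitric oxide that relaxes vessels, lies at chr5:24364810-24384474 on the plus strand. Its normalized counts were 3592, 3898 and 3387 in controls and 3834, 3188 and 2751 in iECKO. The ranges overlapped, with iECKO 1 above control 1 and iECKO 2 and 3 below every control. Its log2 fold change was -0.17 ± 0.13 (SE; 95% interval -0.45 to 0.12; limma, adjusted *P* = 0.479). *Nos3* shares 32.3% of its exonic bases with genes on the opposite strand, *Atg9b* and *Gm15587*, and the library kit did not keep strand, so reads of the partners cannot be told apart there. *Atg9b* itself was low, at 98.6 ± 14.5 in controls and 75.6 ± 6.45 in iECKO (SD, n = 3), and *Gm15587* was not among the deposited symbols.

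*Thbd*, the thrombin-binding receptor on the endothelial surface, lies at chr2:148404466-148408188 on the minus strand. *Thbd* stood at 32145, 25382 and 23032 in controls and at 23359, 20737 and 18886 in iECKO. Only iECKO 1, at 23359, lay above the lowest control, by a small margin. The log2 fold change was -0.35 ± 0.14 (SE; 95% interval -0.68 to -0.01), a fold of 0.787, with an unadjusted limma *P* of 0.0439, an adjusted *P* of 0.193 and an exact permutation *P* of 0.2. Each iECKO library was below the control of the same number, and with the replicate number as a block, which the design does not show to pair the samples, the adjusted *P* was 0.0469, so the call depends on that choice.

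**Figure D2:**
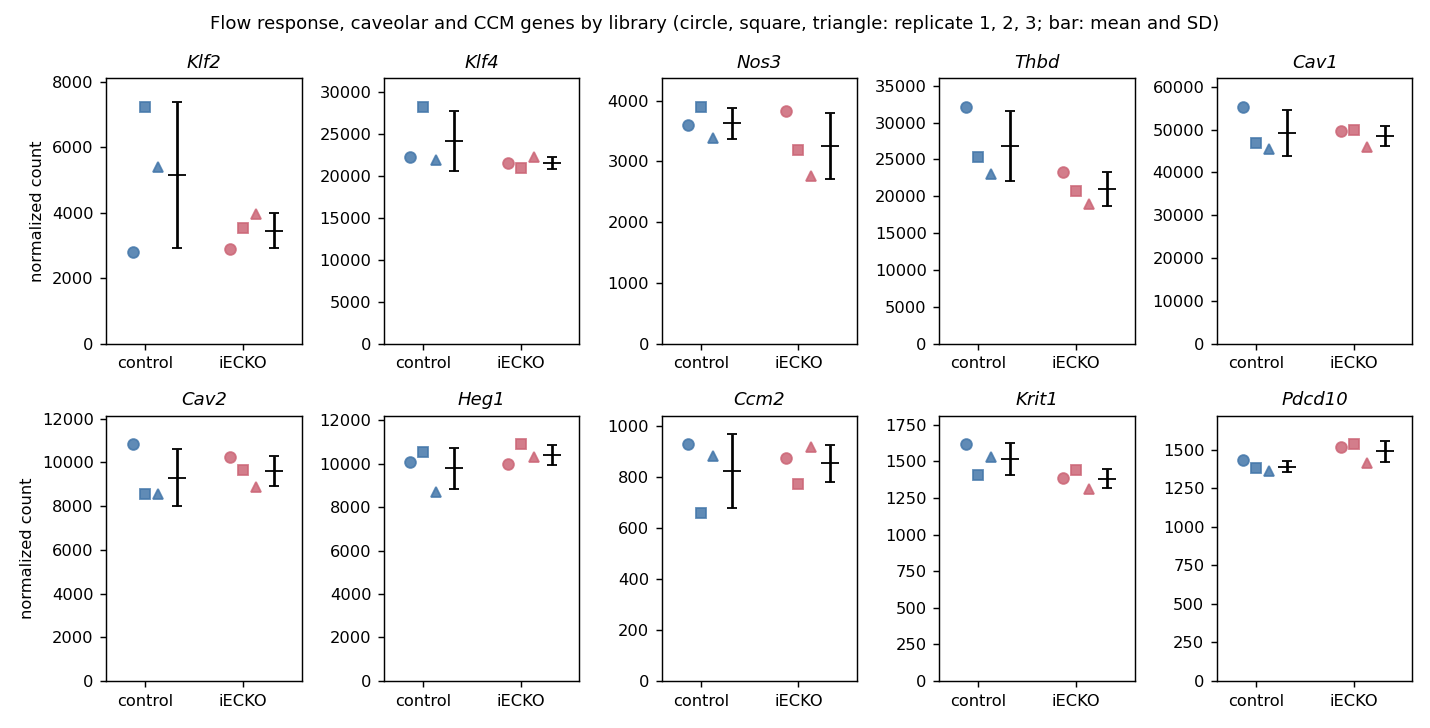
Normalized count of each of the 10 genes in every library, controls in blue and iECKO in red, with circle, square and triangle for replicates 1, 2 and 3, a bar for the mean and SD, and each axis from 0. *Klf2* has the widest controls, 2784 to 7232, and in *Thbd* the genotypes overlap by 1 library, iECKO 1 at 23359 above control 3 at 23032.

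*Cav1*, the structural protein of caveolae and the most abundant member, was at 55304, 46907 and 45358 in controls and at 49766, 49827 and 45873 in iECKO. All iECKO values lay inside the range of the controls. The log2 fold change was -0.02 ± 0.12 (SE; 95% interval -0.29 to 0.26; limma, adjusted *P* = 0.953), and its sign turned, to 0.024, when values were scaled to the same library total. *Cav2*, which needs caveolin-1 to reach the membrane, was at 10834, 8540 and 8549 in controls and at 10251, 9668 and 8880 in iECKO. Again no iECKO library left the control range, and the log2 fold change was 0.05 ± 0.12 (SE; 95% interval -0.21 to 0.32; limma, adjusted *P* = 0.832), with a sign that turned when control 2 or control 3 was left out. The genes are neighbours on chromosome 6 of GRCm38, *Cav2* at 17281185 to 17289115 and *Cav1* at 17306335 to 17341452, both on the plus strand.

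The ratio of *Cav1* to *Cav2* was 5.11, 5.49 and 5.31 in controls and 4.86, 5.15 and 5.17 in iECKO, a range of values that overlapped (exact permutation *P* = 0.3). Across the 6 libraries the logs of both genes had a Pearson *r* of 0.932 and a Spearman rho of 0.771, and *r* was 0.87 without the 2 libraries farthest from the median of *Cav1*. Both were highest in control 1, and these values are a description over shared libraries.

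*Heg1*, the transmembrane anchor of the CCM complex, lies at chr16:33684370-33771576 on the plus strand. *Heg1* stood at 10096, 10545 and 8716 in controls and at 9998, 10900 and 10301 in iECKO. The genotypes were interleaved, control 3 being lowest. An antisense gene, *Gm15657*, shares 2.5% of its exonic bases. The log2 fold change was 0.09 ± 0.10 (SE; 95% interval -0.13 to 0.31; limma, adjusted *P* = 0.618). Among the 4 high-*Xist* libraries it was -0.024, with the other sign.

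*Ccm2*, the scaffold that joins KRIT1 to MEKK3, lies at chr11:6546887-6596744 on the plus strand. *Ccm2* stood at 929, 659 and 883 in controls and at 873, 775 and 917 in iECKO. Control 2 was lowest and control 1 highest, with all iECKO values between them. Its log2 fold change was 0.07 ± 0.15 (SE; 95% interval -0.27 to 0.40; limma, adjusted *P* = 0.83).

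*Krit1*, the RAP1-binding adaptor of the complex, lies at chr5:3803184-3845564 on the plus strand. *Krit1* stood at 1617, 1404 and 1532 in controls and at 1389, 1442 and 1314 in iECKO. Only iECKO 2 entered the control range, and the log2 fold change was -0.13 ± 0.09 (SE; 95% interval -0.34 to 0.07; limma, adjusted *P* = 0.413). *Pdcd10*, the small adaptor that also binds the GCKIII kinases, lies at chr3:75516490-75556856 on the minus strand. *Pdcd10* stood at 1431, 1379 and 1361 in controls and at 1519, 1535 and 1412 in iECKO. Here iECKO 3 was below control 1 and the other iECKO libraries above every control. The log2 fold change was 0.10 ± 0.08 (SE; 95% interval -0.08 to 0.28; limma, adjusted *P* = 0.507), the narrowest interval of the 10.

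Because *Krit1* was lower and *Pdcd10* higher in iECKO on average, their ratio was separated by genotype: 1.13, 1.02 and 1.13 in controls and 0.914, 0.939 and 0.931 in iECKO. The exact permutation *P* was 0.1, the smallest that 3 against 3 allows, and 0.64 after Benjamini-Hochberg adjustment over the 8 ratios of members compared. The difference did not pass the test. The other 7 ratios had exact *P* values of 0.3 to 0.9.

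Levels of different genes were compared as normalized counts per kilobase of their main transcript. In controls they ran from 17913 for *Cav1* through 7957 for *Klf4*, 7213 for *Thbd*, 3406 for *Cav2*, 2784 for *Klf2*, 1199 for *Heg1*, 877 for *Nos3*, 722 for *Pdcd10* and 518 for *Krit1* to 443 for *Ccm2*. The order of the means was the same in iECKO. Neighbours whose control libraries overlapped were *Klf4* and *Thbd*, *Cav2* and *Klf2*, and *Krit1* and *Ccm2*. In iECKO the libraries of *Krit1* and *Ccm2* overlapped again, as did those of *Nos3* and *Pdcd10*, while *Klf4* lay wholly above *Thbd* and *Cav2* wholly above *Klf2*. These are descriptions of level, with no test between genes.

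The 3 genes whose log2 values ran closest to *Klf2* over the 6 libraries, among 11320 genes with a mean of at least 100, were *Cryz* (*r* = 0.988), *Atf3* (*r* = 0.985) and *Atg4c* (*r* = 0.977). *Atf3*, a stress-response transcription factor of the early response list, was at 9633, 19419 and 14175 in controls and 9594, 10944 and 11249 in iECKO. Its order of libraries was that of *Klf2* apart from control 1 and iECKO 1, the lowest pair in both genes. Other genes of that list were mixed in control 1. *Jun* and *Dusp1* were at their highest there, at 37369 and 15099, while *Egr1* and *Nr4a1* were at their lowest among controls, at 11711 and 19635. The closest to *Cav1* were *Rab14*, *Becn1* and *Negr1* (*r* = 0.990, 0.988 and 0.988), and to *Heg1* *Mapre1*, *R3hdm1* and *Nfic* (*r* = 0.996, 0.991 and 0.985). These values, over 6 libraries that all the genes share, are a description only.

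**Figure D3:**
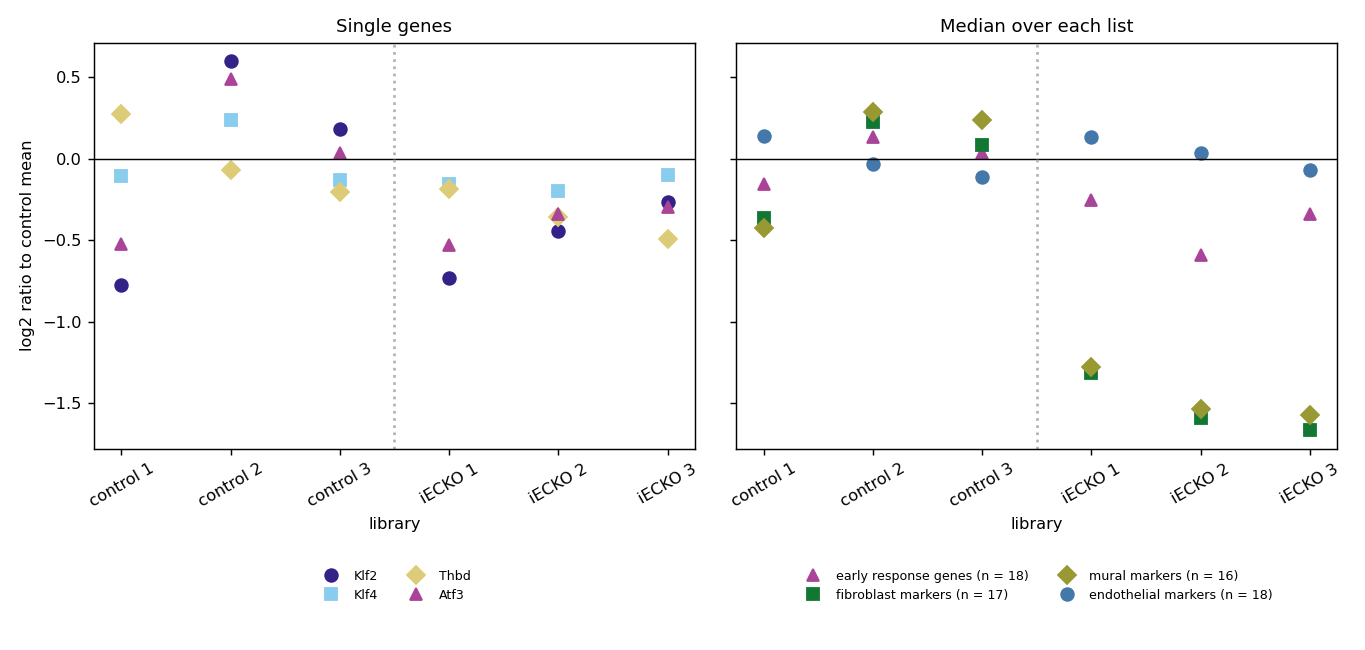
Log2 ratio to the control mean in each library, for *Klf2*, *Klf4*, *Thbd* and *Atf3* (left) and as the median over lists of early response genes and of fibroblast, mural and endothelial markers (right). *Klf2* and *Atf3* are both low in control 1 and iECKO 1, while the fibroblast and mural medians separate the genotypes.

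Early response genes, such as *Fos*, *Egr1* and *Atf3*, are transcribed soon after a stimulus or cell stress. Of the 18 tested, 16 were lower in iECKO, 3 fell past the threshold and none rose, with a median log2 fold change of -0.39. Among all 14456 genes tested, 7133 were lower and 4.97% fell past the threshold. *Fosb* (-0.61), *Btg2* (-0.67) and *Jund* (-0.40) were the 3 (limma, adjusted *P* = 0.0321, 0.0482 and 0.0458). The summed values of all 18 were 229692 to 280429 in controls and 166275 to 205809 in iECKO. These sums did not overlap. Taken singly, 4 of the 18 genes had no overlap between genotypes, against 29.8% of all genes tested. The part of early response genes in the *Klf2* values was not tested.

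Outside the members, 160 genes of the surrounding pathways were in the table and 153 were tested, in lists written by hand with earlier results of these data known. Of these 153, 2 rose and 19 fell, or 13.7%, where 3.28% of all genes rose and 4.97% fell, and their median log2 fold change was -0.07. The calls varied with the libraries: without control 2, control 3, iECKO 2 or iECKO 3 the count was 8, 8, 7 and 6, and among the 4 high-*Xist* libraries it was 0 (limma), with 33 at an unadjusted *P* below 0.05. *Gja4*, *Thbs1*, *Gucy1a1*, *Gucy1b1*, *Prkg1* and *Pde5a* were called with each library left out in turn.

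Few genes were called in the relay above *Klf2* and among the partners of the CCM complex, where 8.25% of all genes tested were called. In lists this short, with 3 libraries a genotype, such counts do not show that the genes were unchanged. In the MEKK3, ERK5 and MEF2 list, 1 of 11 tested genes fell and none rose, with a median of -0.0026. *Map3k3*, which encodes MEKK3, had a log2 fold change of -0.02 (limma, adjusted *P* = 0.935), *Mapk7*, which encodes ERK5, 0.09 (0.554), and *Mef2a* 0.11 (0.588). The gene that fell, *Hdac5*, encodes a deacetylase that represses MEF2 and was at 2887, 3249 and 3278 in controls and 2462, 2046 and 2070 in iECKO (-0.52; adjusted *P* = 0.0234). Of the 17 tested CCM partners none was called, including the GTPase *Rap1b*, the RAP1 effector *Rasip1* and the CCM2 paralog *Ccm2l* (limma, adjusted *P* = 0.862, 0.895 and 0.811). Their median was 0.01. None of 18 flow sensors was called either, with *Piezo1*, a channel opened by membrane stretch, at 0.02 (adjusted *P* = 0.889) and *Notch1* at -0.34 (0.151).

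Among 17 tested genes associated with laminar flow, 3 fell and none rose. *Gja4*, the gap junction protein connexin 37 of arterial endothelium, was at 4847, 5837 and 6035 in controls and at 2856, 2478 and 2241 in iECKO, every iECKO library lying below every control. Its log2 fold change was -1.14 ± 0.12 (SE; limma, adjusted *P* = 0.00731). *Adm*, the vasodilator adrenomedullin, fell by 1.08 and the angiopoietin receptor *Tek* by 0.53 on the log2 scale (adjusted *P* = 0.0396 and 0.0292).

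Among 14 genes associated with low or disturbed flow and inflammation, 3 also fell and none rose. *Thbs1*, the matrix protein thrombospondin 1, was at 41272, 50481 and 31742 in controls and at 17495, 11798 and 14714 in iECKO, with no overlap (-1.48 ± 0.20, SE; limma, adjusted *P* = 0.0103). *Bmp4*, a bone morphogenetic protein, fell by 0.75 and the chemokine *Cxcl12* by 0.53 on the log2 scale (adjusted *P* = 0.0281 and 0.027). The median log2 fold change was -0.15 in the list raised by flow and -0.30 in the list lowered by it. *Thbs1* and *Cxcl12* are also made by fibroblasts and mural cells, whose markers were lower in iECKO as given above. The part of those cells in the falls of either flow list, *Gja4* and *Bmp4* included, was not tested.

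**Figure D4:**
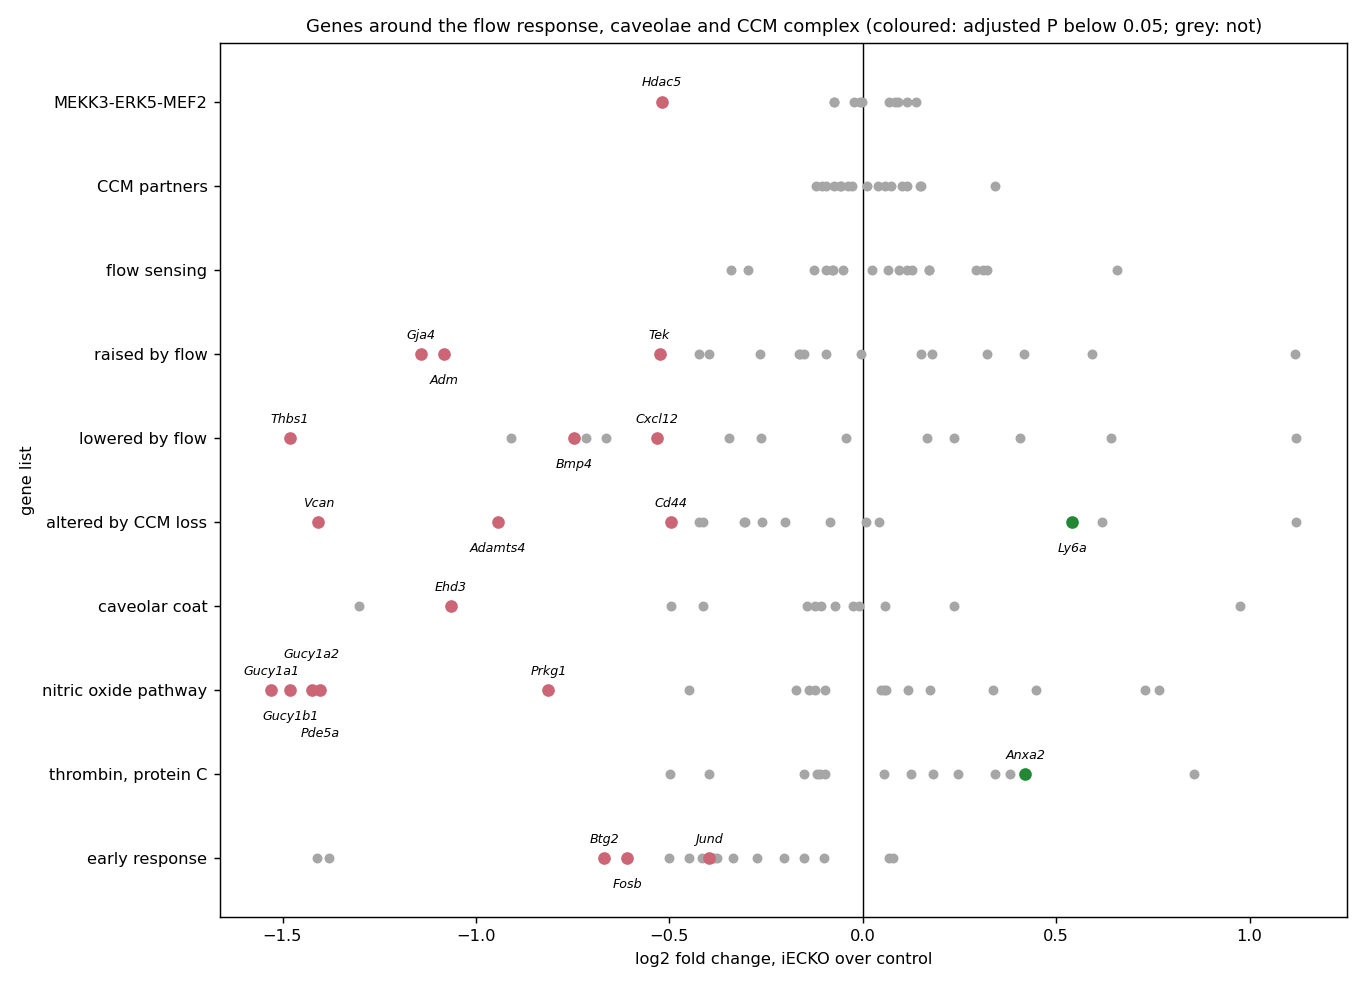
Log2 fold change of iECKO over control for the tested genes of 10 pathway lists, one row per list, with called genes in colour and named and the others in grey. The called genes of the nitric oxide list sit between -1.53 and -0.81, and no gene of the CCM partner or flow sensing lists is called.

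Of 19 genes reported to change after loss of the CCM complex, among them 4 members, 3 fell and 1 rose. *Vcan*, the proteoglycan versican, was at 2146, 4933 and 2728 in controls and at 1119, 1217 and 1134 in iECKO (-1.41 ± 0.26, SE; limma, adjusted *P* = 0.0215). *Adamts4*, a protease that cuts versican, fell by 0.94 and the hyaluronan receptor *Cd44* by 0.50 on the log2 scale (adjusted *P* = 0.0387 and 0.0475). *Ly6a*, a surface protein, rose by 0.54 (adjusted *P* = 0.0334). The median over the list was -0.26. Versican is also made by fibroblasts, whose 17 tested markers had a median of -1.50. Their part in the falls of *Vcan*, *Adamts4* and *Cd44* was not tested.

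Of the 13 tested partners of caveolae, 1 fell and none rose. *Cavin1*, the coat protein that caveolae need to form, was at 30058, 27659 and 28236 in controls and at 28209, 30281 and 26862 in iECKO, with overlapping ranges and a log2 fold change of -0.01 (limma, adjusted *P* = 0.961). *Cavin2* was at -0.12 (0.735) and the membrane ATPase *Ehd2* at -0.07 (0.704). *Ehd3*, a relative of *Ehd2*, was at 912, 975 and 819 in controls and at 585, 355 and 382 in iECKO and fell by 1.06 on the log2 scale (adjusted *P* = 0.0192).

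In the nitric oxide list, 5 of 19 tested genes fell and none rose, and all 5 lie downstream of nitric oxide. *Gucy1a1* and *Gucy1b1* encode the subunits of soluble guanylate cyclase, the nitric oxide receptor. *Gucy1a1* was at 5727, 9181 and 8402 in controls and at 2955, 2521 and 2465 in iECKO (-1.53 ± 0.17, SE; limma, adjusted *P* = 0.00831), and *Gucy1b1* fell by 1.48 (adjusted *P* = 0.00731). *Pde5a*, which breaks down the cyclic GMP made by that receptor, was at 7864, 10763 and 9072 in controls and at 3435, 3468 and 3479 in iECKO (-1.40; adjusted *P* = 0.00551). *Gucy1a2* fell by 1.43 and the cyclic GMP-dependent kinase *Prkg1* by 0.81 (adjusted *P* = 0.0281 and 0.0109). The receptor, phosphodiesterase and kinase are abundant in smooth muscle cells and pericytes, and the 16 mural markers had a median log2 fold change of -1.48. The part of mural cells in these falls was not tested. *Nos3*, the source of nitric oxide in the endothelium, was not called beside them.

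In the list of thrombin and protein C, which also holds genes of the plasminogen system, 1 of 14 tested genes rose and none fell. Over all genes tested, 3.28% rose. *Anxa2*, annexin A2, which binds plasminogen at the cell surface, was at 7380, 8081 and 8227 in controls and at 11745, 10255 and 9754 in iECKO, every iECKO library above every control (0.42 ± 0.10, SE; limma, adjusted *P* = 0.0385). *Procr*, the endothelial receptor that presents protein C to the thrombin-thrombomodulin complex, was at 546, 578 and 369 in controls and at 343, 415 and 358 in iECKO, with overlapping ranges and a log2 fold change of -0.40 (adjusted *P* = 0.248).

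Other cell types in the bead fraction were read beside the caveolins, since alveolar epithelial cells also make caveolin-1. Summed epithelial markers were at 85839 in control 3 and between 33837 and 48743 in the other libraries, and 1 of 18 rose and none fell. Control 3 had the lowest *Cav1* of the 6 libraries, at 45358. The part of epithelial cells in the caveolin values was not tested. Leukocyte markers ran from 10382 to 18617 in controls and from 9165 to 25400 in iECKO, with none of 17 called (limma). None of 8 lymphatic and 5 erythroid markers was called, and the summed erythroid markers were at 11205 to 47722 in controls and 10591 to 22088 in iECKO. The defining markers *Epcam* and *Ptprc* were above 0 in every library.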

How the data were processed

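RNA-Seq libraries of bead-isolated lung endothelial cells, 3 control and 3 *Atp6ap2* iECKO, were grouped by their labels. The authors aligned reads to mm10 and deposited 1 table of normalized counts, a signal already scaled between libraries although the labels call it raw counts: few values are whole, and every library has the same median ratio, 1.0036, to the gene-wise geometric mean. Read depth is therefore unknown, and no count model was used. The filter kept genes that reached 10 in 3 or more libraries. Their log2(value + 1), a scale that understates fold changes of low genes, was fitted by limma-trend (limma 3.58.1, R 4.3.3). *P* values were adjusted by Benjamini-Hochberg over all genes tested, with a threshold of 0.05. The test was checked on simulated data. Of 24972 symbols, 24490 matched the GENCODE annotation of GRCm38. Motifs and coordinates were read with Python 3.11.15, and figures drawn with matplotlib 3.10.9.

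Named genes were the 10 members, *Atp6ap2*, called genes of the pathway lists (at most 8 a list), up to 3 direct partners a list, the 3 genes most like *Klf2*, *Cav1* and *Heg1*, and defining cell type markers. *Atg9b* and *Procr* were named as an overlapping gene and a partner after their values were seen. *Gm15587* and *Gm15657* were named from the annotation as overlapping genes and were not among the deposited symbols. The members and lists were chosen with earlier results of these data known. Alternatives were other scalings, pseudocounts, filters and variance models, a replicate block, an *Xist* covariate, each library left out and, chosen after seeing the data, the 4 high-*Xist* libraries alone.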

Additional observations from a re-analysis of the deposited data

How the results depend on the processing

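Of 170 refits of single members, 160 kept their direction and side of the threshold, 2 became calls and 8 turned sign. With the replicate number as a block, 1 member (*Thbd*), 25 pathway genes and 1508 of all genes were called, against 0, 21 and 1193. The adjusted *P* of *Thbd* was then 0.0469. Deviations of same-numbered libraries correlated by 0.252, 0.114 and 0.078 (mean 0.148). The mean for other pairs, -0.074, follows from centring each genotype on its own mean and adds no separate evidence. The correlations are therefore not independent, and 5 of 6 libraries correlated best with their own number, a weak hint of pairing from the data. No label says what a number marks, and not every correlation was above 0.1, so the fit without the block was kept. Leaving out 1 library gave 0 to 1 members, 6 to 18 pathway genes and 204 to 989 of all genes; the member was *Klf2*, without control 1. The all-gene count was 268 without control 3, 248 without iECKO 2 and 204 without iECKO 3. Without the mean-variance trend 304 genes and 6 pathway genes were called, and with an *Xist* covariate 767 genes and 14 pathway genes. The 4 high-*Xist* libraries alone gave 1 gene, 0 members and 0 pathway genes, with 2239, 1 and 33 at an unadjusted *P* below 0.05, and fewer samples. Scaling to equal library totals gave 573 higher and 599 lower, against 474 and 719. Signs turned for *Cav1* under that scaling (0.024) and for *Cav2* (-0.012) and *Heg1* (-0.024) in the 4 high-*Xist* libraries. With 1 library left out, log2 fold changes ran from -0.072 to 0.071 for *Cav1*, from -0.0061 to 0.17 for *Cav2* and from -0.087 to 0.16 for *Ccm2*. Apart from fewer samples, the cause was not tested. Values without read depth and 3 libraries a genotype limit precision.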
